A study of Mus musculus with 12 samples.

Results

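The libraries described here are the 6 macrophage libraries from untreated femurs, chosen by the bone named in their titles, of 12 in the series. Each was made with an mRNA library kit from total RNA of macrophages sorted out of nucleated bone marrow cells. The donors were 2 C57BL/6 mice, numbered 7 and 19, with 3 femur libraries each. The femurs were untreated, but the tibias of the same animals had received mesenchymal stromal cells (MSCs), so the femurs come from treated animals and not from untouched ones. The title of the series speaks of leukaemic marrow. The labels state neither the leukaemia status, age and sex of the animals, nor the surface markers of the sort, nor whether the 3 libraries of a mouse are separate sorts. Any p-value below therefore measures the spread between libraries, which may be technical, and a difference between mouse 7 and mouse 19 is a difference between 2 animals.

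Marrow mononuclear phagocytes include circulating-type monocytes, their precursors and resident macrophages. Monocyte and macrophage development depends on the receptor for colony stimulating factor 1 (CSF1), encoded by Csf1r, and on the transcription factors PU.1 and IRF8. In the mouse, classical monocytes carry much surface Ly6C and the chemokine receptor CCR2, non-classical monocytes carry more CX3CR1 and little Ly6C, and resident marrow macrophages that support red cell formation or clear dying cells are known for VCAM1, the sialic acid receptor CD169 (Siglec1) and the haemoglobin receptor CD163.

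Ly6c2 and Ly6c1 lie near each other on chromosome 15 and encode closely related Ly6C surface proteins, yet their levels were far apart in these libraries, so the sequences in front of their annotated starts are shown. Fcgr4, the gene of an Fc gamma receptor of monocytes and macrophages on chromosome 1, is shown beside them. The windows are the 250 bases upstream of a RefSeq start in GRCm38.p6, printed 5′ to 3′ on the strand of the gene. Ly6c2 and Ly6c1 each have more than 1 annotated start, and the window shown is that of 1 start, chosen because it holds the letters marked. Capitals mark GAGGAAGT or its reverse complement ACTTCCTC, an Ets-type core with flanks that PU.1 favours. The Ly6c2 window is chr15:75111938-75112187 on the minus strand, the Ly6c1 window is chr15:75048664-75048913 on the minus strand, and the Fcgr4 window is chr1:171018676-171018925 on the plus strand.
Ly6c2: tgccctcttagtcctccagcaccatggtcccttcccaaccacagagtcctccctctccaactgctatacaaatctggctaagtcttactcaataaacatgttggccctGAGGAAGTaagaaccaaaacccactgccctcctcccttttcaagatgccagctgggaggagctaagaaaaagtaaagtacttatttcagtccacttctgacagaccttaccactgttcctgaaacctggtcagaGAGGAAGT
Ly6c1: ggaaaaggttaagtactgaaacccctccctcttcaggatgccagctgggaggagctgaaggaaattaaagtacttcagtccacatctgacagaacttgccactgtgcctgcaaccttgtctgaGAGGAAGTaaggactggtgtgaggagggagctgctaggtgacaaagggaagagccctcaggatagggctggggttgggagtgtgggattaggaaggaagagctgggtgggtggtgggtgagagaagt
Fcgr4: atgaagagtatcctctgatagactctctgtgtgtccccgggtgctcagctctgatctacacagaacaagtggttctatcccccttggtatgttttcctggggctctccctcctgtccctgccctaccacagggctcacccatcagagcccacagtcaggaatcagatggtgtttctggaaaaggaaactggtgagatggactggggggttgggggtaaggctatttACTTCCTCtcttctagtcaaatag

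In the Ly6c2 window the letters begin 142 and 8 bases before the start, and in the Ly6c1 window 127 bases before it. A pairwise alignment with free ends placed the Ly6c1 match on the Ly6c2 match nearest the start. In it 109 of 127 paired bases were identical (85.8%). Pairings with other annotated windows of these genes gave 74.7 to 86.0% and placed no match on another. Ly6c2 nevertheless measured 870.0, 878.8 and 927.2 CPM (counts per 1000000 reads) in mouse 7 and 1075, 1080 and 1057 CPM in mouse 19. Ly6c1 measured 5.91, 6.97 and 7.58 CPM in mouse 7 and 9.45, 11.0 and 10.2 CPM in mouse 19. Every Ly6c2 value was above every Ly6c1 value, and per kilobase of exon the ratio was 216.3 ± 32.4 (SD, n = 6 libraries; range 178.8 to 269.0). The 2 genes are similar in sequence, so reads could have been divided between them in counting.

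Over 21007 promoter windows of 17373 genes, GAGGAAGT in either orientation occurred in 2.33%. The share was 1.60% for genes with no count in any femur library and 3.32% for genes at 100 CPM or more, while the median GC content of these windows was 47.2% and 61.2%. It occurred in 3 of 20 windows of the macrophage core list, 3 of 20 of the classical monocyte list, 6 of 33 of the granule lists and 1 of 71 of the lymphoid lists. The macrophage core windows with it belonged to Ly6c2 and Fcgr4, and the classical monocyte windows to Ly6c2 and Ly6c1. Both lists thus counted the same Ly6c2 windows, which overlap. The C/EBP-type letters TTGCNNAA, searched on both strands, occurred in 8.88% of all windows, in 3 of 20 macrophage core windows and in 15 of 71 lymphoid windows. These counts describe letters in a window and not binding, and windows of 1 gene can overlap.

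Total counts ran from 9773455 to 14322036 per library, 13524 to 13864 genes had a count in each, and the 10 most abundant rows took 6.54 to 7.39% of the reads. The Pearson correlation of log2 CPM across genes was 0.9898 to 0.992 between libraries of 1 mouse and 0.979 to 0.9829 between the animals. Low counts were mostly even, with 4844 counts of 2 against 1484 of 1, so a fragment seems to appear as 2 counts. A count of 0 in a library then allows up to 3 fragments, or 0.418 to 0.617 CPM, and 0 in all 6 libraries allows 0.0789 CPM. These floors cover counting error only. CPM here uses TMM-scaled library sizes, and an order between different genes is read from CPM per kilobase of exon, since CPM also grows with transcript length.

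The 6 markers given for macrophages were present in every library, and Lyz2, the gene of lysozyme M, had rank 1 by CPM of all 23391 ranked gene rows and rank 2 by CPM per kilobase. Lyz2 measured 15256, 15203 and 15715 CPM in mouse 7 and 13646, 13623 and 13248 CPM in mouse 19. Csf1r, the CSF1 receptor, measured 1124, 1071 and 1108 CPM in mouse 7 and 782.1, 780.8 and 788.6 CPM in mouse 19. All libraries of mouse 7 lay above all libraries of mouse 19 for these 2 genes. Emr1, which encodes the macrophage surface protein F4/80, measured 363.7, 362.6 and 358.1 CPM in mouse 7 and 249.6, 239.1 and 257.5 CPM in mouse 19. Cx3cr1, the fractalkine receptor, measured 298.3, 303.6 and 302.3 CPM in mouse 7 and 210.5, 213.7 and 203.7 CPM in mouse 19. Itgax, the integrin CD11c, ran the other way, at 55.1, 52.0 and 54.3 CPM in mouse 7 and 72.4, 74.6 and 75.7 CPM in mouse 19. The animals overlapped for none of the 6 markers, Ly6c2 included, and for 41.6% of all tested genes they likewise did not overlap.

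**Figure D1:**
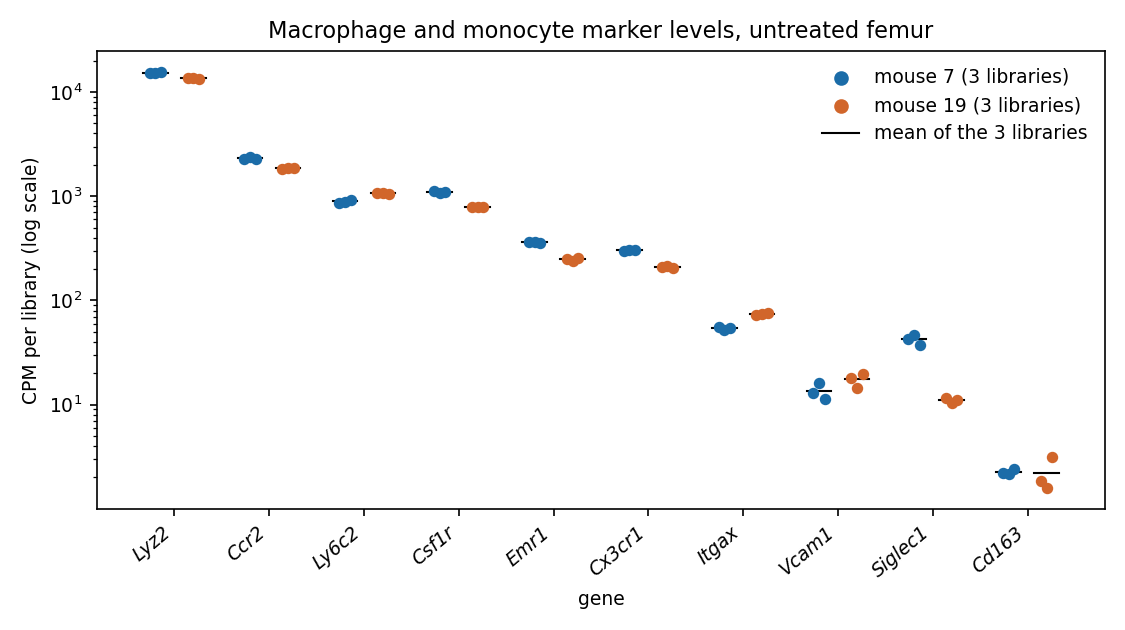
CPM per library on a log axis for the 6 given markers plus Ccr2 and the resident macrophage genes Vcam1, Siglec1 and Cd163, in blue for mouse 7 and orange for mouse 19, with a line at the mean of each 3 libraries. The points span from Lyz2, at 13248 CPM or more, down to Cd163, with a mean of 2.23 CPM, and the colours overlap for Vcam1 and Cd163 and for no other gene drawn.

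Per kilobase of exon the order of the 6 markers was Lyz2 (10979), Ly6c2 (1194), Csf1r (243.5), Emr1 (94.2), Cx3cr1 (68.0) and Itgax (15.8). The steps from Lyz2 to Ly6c2, Csf1r and Emr1 are larger than the spread between libraries, while the ranges of Emr1 and Cx3cr1 over the 6 libraries overlap through the difference between the animals, and Emr1 was above Cx3cr1 within each library. The Csf1r to Emr1 ratio per kilobase kept to 2.47 to 2.73 over the 6 libraries. In GRCm38.p6, Lyz2 spans chromosome 10 from 117277541 to 117282272, Emr1 (now Adgre1) chromosome 17 from 57358581 to 57483529, Cx3cr1 chromosome 9 from 120048683 to 120068296, Itgax chromosome 7 from 128129526 to 128150657 and Ly6c2 chromosome 15 from 75108161 to 75112066.

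Of the 25 genes of the macrophage core list, 25 reached 1 CPM, 24 reached 10 CPM and 16 reached 100 CPM, where 47.9%, 36.2% and 10.5% of all gene rows did. The list median was 305.1 CPM, against 31.8 CPM over the 11504 genes tested. Mpeg1, which encodes the pore-forming protein perforin-2, averaged 3039 ± 347.5 CPM (SD, n = 6 libraries, here and below; the SD includes the difference between the animals). Cybb, the catalytic subunit of the phagocyte oxidase, averaged 2284 ± 64.5 CPM, and Cd68, a lysosomal glycoprotein, 269.8 ± 15.1 CPM. The lowest core gene per kilobase was Mertk, a receptor for apoptotic cells, at 1.11, with a mean of 4.77 ± 0.747 CPM. All 6 given markers reached 10 CPM, but Lyz2, Ly6c2, Cx3cr1 and Itgax are also on granule, monocyte or dendritic cell lists. Their presence alone does not set macrophages apart from those cells.

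Most classical monocyte genes were abundant, and 19 of 21 reached 100 CPM, with list medians of 735.4 CPM and 271.6 CPM per kilobase. The median of 735.4 CPM is the level of Cd177, which is also on the mature neutrophil and secondary granule lists. Fn1 (fibronectin) averaged 8545 ± 492.6 CPM, rank 2 by CPM and rank 29 per kilobase. Chi3l3, which encodes the chitinase-like protein Ym1, averaged 6411 ± 631.9 CPM, and F13a1, the A subunit of coagulation factor XIII, 3356 ± 189.3 CPM. Chi3l3 is also on the list of granulocyte secondary granule genes. Ccr2, the receptor that draws monocytes out of marrow, measured 2278, 2392 and 2278 CPM in mouse 7 and 1841, 1878 and 1849 CPM in mouse 19. Vcan, the matrix proteoglycan versican, measured 1458, 1521 and 1415 CPM in mouse 7 and 944.8, 930.0 and 971.5 CPM in mouse 19. Both genes were higher in every library of mouse 7.

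Non-classical monocyte genes had lower list medians, 86.5 CPM and 32.9 CPM per kilobase, with 18 of 20 at 10 CPM or more and 8 at 100 CPM or more. Itgal, the alpha chain of LFA-1, averaged 603.7 ± 93.6 CPM and Spn (CD43) 295.1 ± 24.0 CPM. Ace, angiotensin-converting enzyme, measured 205.2, 215.7 and 184.3 CPM in mouse 7 and 61.9, 59.9 and 68.8 CPM in mouse 19. Treml4, a surface receptor of Ly6C-low monocytes, measured 58.8, 56.9 and 57.9 CPM in mouse 7 and 22.1, 25.2 and 26.2 CPM in mouse 19. Ace and Treml4 were lower in every library of mouse 19. Per kilobase, Ccr2 stood 10.4 ± 0.837 times above Cx3cr1, and F13a1 stood 20.4 to 25.0 times above Ace in mouse 7 and 57.8 to 68.4 times in mouse 19. In bulk RNA such as this, fewer cells of a type and less RNA per cell cannot be told apart.

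The 3 genes that define resident and erythroblastic island macrophages had means below the 31.8 CPM median of tested genes, and 2 of them reached 10 CPM. Vcam1 measured 12.8, 16.0 and 11.3 CPM in mouse 7 and 18.2, 14.5 and 19.7 CPM in mouse 19. Siglec1 measured 42.3, 46.8 and 37.5 CPM in mouse 7 and 11.7, 10.4 and 11.0 CPM in mouse 19. The animals overlapped for Vcam1 and did not for Siglec1, whose values in mouse 7 were above that median. Cd163 averaged 2.23 ± 0.536 CPM, Vsig4, a complement receptor of tissue macrophages, was at or below 0.307 CPM, and Timd4, a phosphatidylserine receptor of resident macrophages, had no count in any library. Epor, the erythropoietin receptor, averaged 0.746 ± 0.494 CPM. Spic, a transcription factor of iron-recycling macrophages, averaged 4.91 ± 2.00 CPM.

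Other genes on that list were well read, and 15 of 22 reached 10 CPM with a median of 25.2 CPM. Emb (embigin) averaged 897.8 ± 75.5 CPM, Slc11a1, a phagosomal metal transporter, 166.1 ± 24.4 CPM and Hmox1 (haem oxygenase 1) 132.5 ± 8.05 CPM. The complement genes C1qa, C1qb and C1qc averaged 60.6 ± 10.1, 92.5 ± 15.1 and 76.4 ± 17.1 CPM. Slc40a1, the iron exporter ferroportin, averaged 37.9 ± 13.1 CPM, and Mrc1, the mannose receptor, 13.5 ± 1.88 CPM. Per kilobase, Vcam1 was 0.0029 to 0.00442 of Ly6c2.

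Osteoclasts arise from the same myeloid precursors, and their list split by gene. Nfatc1, the transcription factor of osteoclast formation, averaged 131.5 ± 9.85 CPM, Acp5, the acid phosphatase TRAP, 61.0 ± 5.15 CPM, and Tnfrsf11a, the receptor RANK, 10.4 ± 1.11 CPM. Ctsk, the bone-resorbing cathepsin K, averaged 1.86 ± 1.05 CPM, Dcstamp, a fusion receptor, 0.0507 ± 0.0787 CPM, and Calcr, the calcitonin receptor, had no count. Of 17 genes, 11 reached 10 CPM.

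Myeloid transcription factors were read at high levels, and 34 of 41 lineage factors reached 10 CPM. Sfpi1, which encodes PU.1, measured 517.3, 507.1 and 519.9 CPM in mouse 7 and 547.7, 539.1 and 517.1 CPM in mouse 19, the animals overlapping. Per kilobase, Cebpb stood at 362.3, Sfpi1 at 258.0, Irf5 at 169.2, Klf4 at 121.0, Irf8 at 102.3 and Cebpa at 58.5. Some factors of other lineages were in the same range, such as Nfe2 of megakaryocytes and red cells at 101.9 and Lmo2 of stem cells and red cells at 58.1. Others were lower, with Gata1 of red cells and megakaryocytes at 2.43 per kilobase, Zbtb46 of conventional dendritic cells at 0.249 and Pax5 of B cells at 0.0788. Sfpi1 stood 74.7 to 200.1 times above Gata1 per kilobase over the 6 libraries.

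Receptors for myeloid growth factors differed widely in level. Per kilobase, Csf2ra, the alpha chain of the receptor for granulocyte-macrophage CSF, stood at 266.2, Csf1r at 243.5, Csf3r, the granulocyte CSF receptor, at 129.7 and the common beta chain Csf2rb at 117.3. The interleukin 3 receptor chain Il3ra stood at 30.6, Flt3 at 6.21 and Kit at 2.17 on the same scale. Csf1r was 1.06 to 1.11 times Csf2ra in mouse 7 and 0.718 to 0.789 times in mouse 19, so their order changed with the animal. Of 29 growth factor and cytokine receptors, 26 reached 10 CPM, among them Il17ra at 602.1 ± 34.1, Tnfrsf1b (TNF receptor 2) at 595.2 ± 87.8 and Ifngr1, an interferon gamma receptor chain, at 387.4 ± 47.8 CPM. Of 21 chemokine and chemoattractant receptors, 13 reached 10 CPM. Per kilobase Ccr2 stood at 695.5, Cxcr4, the marrow retention receptor, at 142.1, Fpr2, a formyl peptide receptor, at 88.7, Ccr1 at 69.6, Cx3cr1 at 68.0 and Cxcr2, which guides mature neutrophils, at 24.4.

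Genes that sense microbes and take up particles were broadly present. Of 32 pattern recognition genes 29 reached 10 CPM, and of 34 phagocytic and scavenger receptor genes 26 did. Tlr13, a receptor for bacterial ribosomal RNA, averaged 380.5 ± 49.1 CPM, Clec7a (dectin-1) 272.5 ± 11.4 CPM, Tlr2, the receptor of bacterial lipoproteins, 136.0 ± 10.6 CPM, and Tlr4, the endotoxin receptor, 67.5 ± 13.8 CPM. Cd14, the endotoxin co-receptor, averaged 50.7 ± 11.7 CPM. Itgam, the CD11b chain, averaged 1557 ± 63.8 CPM, and Lrp1, a large endocytic receptor, 1372 ± 184.2 CPM. The signalling adaptors Tyrobp (DAP12) and Fcer1g stood at 1351 and 1039 CPM per kilobase. Marco, a scavenger receptor of tissue macrophages, had no count.

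Of 35 lysosomal and antimicrobial genes 32 reached 10 CPM, and the list summed to 4.09% of all counts, Lyz2 included. Psap, the precursor of the saposins that help break down sphingolipids, averaged 7070 ± 363.4 CPM, rank 3 by CPM and rank 9 per kilobase. Ctss, the protease that trims the invariant chain, averaged 1263 ± 274.0 CPM, and the cathepsins Ctsb and Ctsd 1109 ± 29.8 and 757.6 ± 60.0 CPM. Among complement genes, C3, the central component, averaged 2221 ± 127.1 CPM, and properdin (Cfp) 339.8 ± 34.9 CPM.

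Class II antigen presentation genes were present at moderate levels, with 14 of 19 at 10 CPM or more. Cd74, the invariant chain, measured 735.1, 682.0 and 668.6 CPM in mouse 7 and 336.3, 345.6 and 376.0 CPM in mouse 19. H2-Ab1, a class II beta chain, measured 241.1, 226.2 and 221.9 CPM in mouse 7 and 138.4, 146.0 and 150.5 CPM in mouse 19. Both were lower in every library of mouse 19.

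Of 43 genes of secreted cytokines and chemokines 14 reached 10 CPM, a share near that of all gene rows (36.2%), and the list median was 5.20 CPM. Ccl6 and Ccl9, chemokines of myeloid cells, averaged 675.9 ± 62.7 and 561.7 ± 94.5 CPM, and Tgfb1, which encodes transforming growth factor beta 1, 346.5 ± 13.7 CPM. Il1b averaged 29.7 ± 7.64 CPM and Tnf 17.6 ± 4.89 CPM. Il6, at 0.244 ± 0.155 CPM, Il12b, at 0.213 ± 0.176 CPM, and Arg1 (arginase 1), at 0.215 ± 0.207 CPM, lay under the floor of a single library. Per kilobase Tgfb1 stood 5.60 to 10.4 times above Il1b.

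All 30 genes of the cell cycle list reached 10 CPM, 23 of them reached 100 CPM, and the median was 141.4 CPM. Mki67, which encodes the proliferation antigen Ki-67, measured 1389, 1506 and 1432 CPM in mouse 7 and 1672, 1604 and 1700.0 CPM in mouse 19. Top2a, DNA topoisomerase II alpha, measured 829.4, 853.2 and 875.2 CPM in mouse 7 and 984.4, 975.0 and 994.0 CPM in mouse 19. Every library of mouse 19 was above every library of mouse 7 for both genes. Genes of monocyte and granulocyte progenitors were also present, 17 of 19 at 10 CPM or more. The stem cell factor receptor Kit averaged 11.4 ± 3.50 CPM, Flt3, a receptor of early progenitors and dendritic precursors, 22.7 ± 1.70 CPM, and Cd34 6.25 ± 1.48 CPM.

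All 23 genes of the list of immediate early and dissociation-linked genes reached 10 CPM. Fos ranged from 881.2 to 1664 CPM and Jun from 222.3 to 631.5 CPM, with animals that overlapped for both. Their spread was wider than that of Sfpi1 or Cybb. In the edgeR test described below, 6 of the 23 genes were higher in mouse 19 and 6 lower. Jun was among the higher ones, with means of 290.3 CPM in mouse 7 and 460.0 CPM in mouse 19. Fosb was higher without overlap, at 19.8 to 42.4 CPM in mouse 7 and 51.5 to 140.2 CPM in mouse 19.

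Several genes that neutrophils make in quantity stood high per kilobase, with S100a9 at 11557, S100a8 at 9047 and Ngp at 4324. Of the macrophage core list only Lyz2, which is also a granule gene, lay in that range, and Tyrobp followed at 1351. S100a9, which encodes a calprotectin subunit made in quantity by neutrophils and also by classical monocytes, measured 4480, 4999 and 4696 CPM in mouse 7 and 6813, 6982 and 8016 CPM in mouse 19. Per kilobase S100a9 stood at 0.745 to 0.834 of Lyz2 in mouse 7 and 1.27 to 1.53 times Lyz2 in mouse 19, so the leading gene on this scale differed between the animals. Ngp, a neutrophil granule protein, measured 4098, 4583 and 4146 CPM in mouse 7 and 6106, 5868 and 6902 CPM in mouse 19. Ltf, the secondary granule protein lactoferrin, measured 2031, 2251 and 2067 CPM in mouse 7 and 3290, 3130 and 3529 CPM in mouse 19. These 3 genes were higher in every library of mouse 19.

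All 17 secondary granule genes reached 10 CPM, with a median of 735.4 CPM. That median is again the level of Cd177, shared with the classical monocyte list. The 12 of them that are on no mononuclear phagocyte list summed to 13153 CPM. Of 18 primary granule genes 16 reached 10 CPM, and among the defining ones Mpo (myeloperoxidase) stood at 371.8 ± 155.1 CPM, Prtn3 (proteinase 3) at 300.6 ± 79.2 CPM and Elane (neutrophil elastase) at 169.5 ± 53.4 CPM. Primary granule genes are also on in early monocyte precursors. Mpo was 0.105 to 0.118 of Ltf per kilobase in mouse 7 and 0.134 to 0.164 in mouse 19. Of 23 mature neutrophil genes with a row 22 reached 10 CPM, and Ly6g, also listed, matched no row. What part of these reads came from granulocytes in the sort was not tested.

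**Figure D2:**
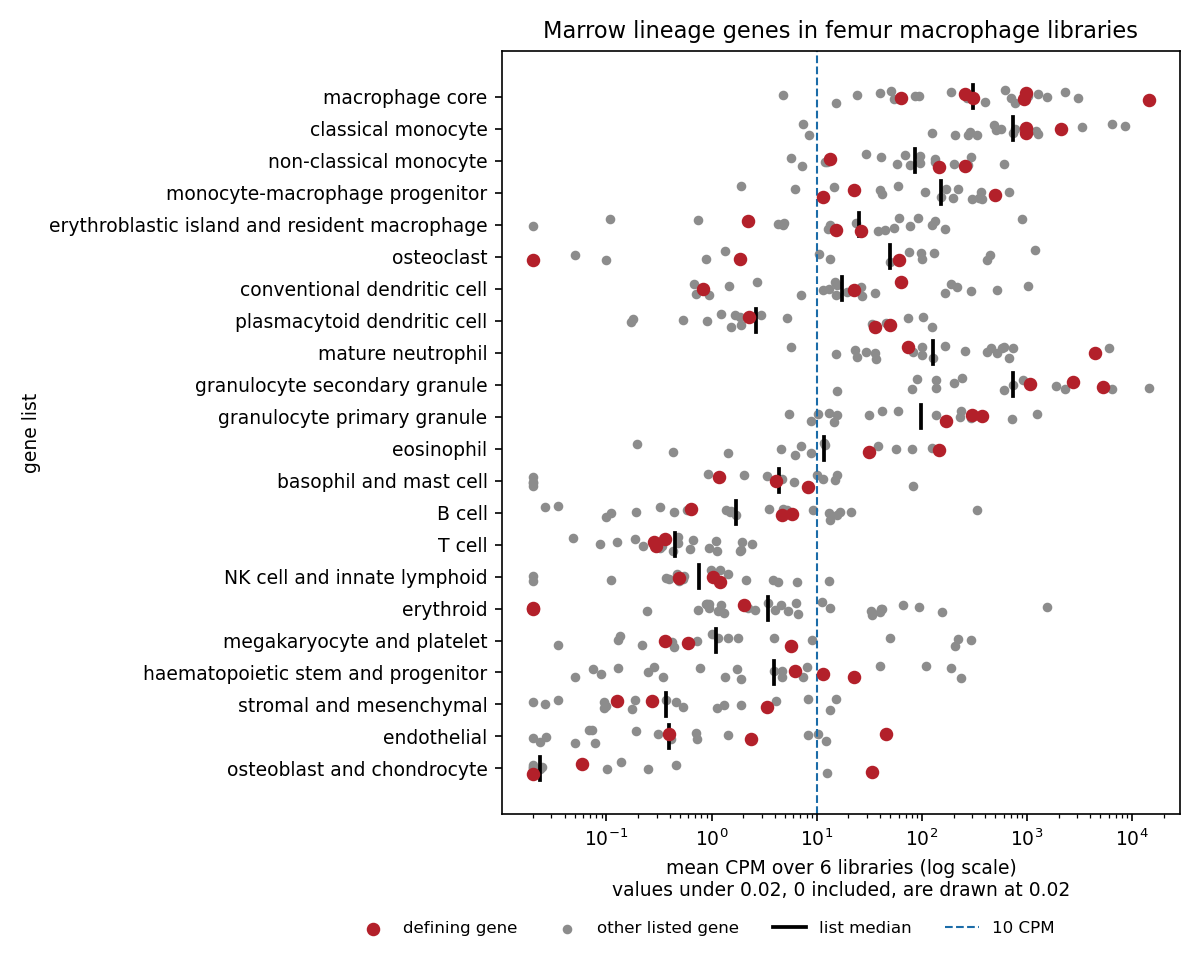
Mean CPM over 6 libraries on a log axis for each member of the lineage lists, 1 point per gene, red for defining genes, with a black bar at the list median and a dashed line at 10 CPM. Means under 0.02 CPM, 0 included, are drawn at 0.02. Macrophage, classical monocyte and secondary granule genes lie mostly above 100 CPM, and T cell, stromal and osteoblast genes mostly below 1 CPM.

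Of 15 eosinophil genes with a row 8 reached 10 CPM, and Siglecf, also listed, matched no row. Prg2, the eosinophil major basic protein, measured 57.1, 59.0 and 64.7 CPM in mouse 7 and 208.0, 221.5 and 262.4 CPM in mouse 19. Epx (eosinophil peroxidase) measured 9.13, 10.7 and 15.5 CPM in mouse 7 and 44.0, 53.9 and 55.6 CPM in mouse 19. The animals lay far apart for both. Genes of the Ear ribonuclease family are close copies of each other, so their separate counts are uncertain. Of 18 basophil and mast cell genes 4 reached 10 CPM. Mcpt8, a basophil protease, averaged 8.31 ± 2.35 CPM.

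Dendritic cell lists were read in part. Of 24 conventional dendritic cell genes 17 reached 10 CPM, and that list holds class II genes and Sirpa, which macrophages also express. Of its 3 defining genes 2 reached 10 CPM, Itgax at 64.0 ± 11.3 CPM and Flt3 at 22.7 ± 1.70 CPM. The third, the transcription factor Zbtb46, averaged 0.829 ± 0.263 CPM, Xcr1, the chemokine receptor of cross-presenting dendritic cells, 0.712 ± 0.490 CPM, and Clec9a, a dead-cell receptor of the same cells, 2.68 ± 0.936 CPM. Of 20 plasmacytoid dendritic cell genes 8 reached 10 CPM, a share near the 36.2% of all gene rows. Of the 3 defining ones, Tcf4, a transcription factor, averaged 50.1 ± 11.0 CPM, Bst2 (tetherin) 35.9 ± 14.2 CPM and the lectin Siglech 2.28 ± 1.09 CPM, while Irf7 and Tlr7, which other myeloid cells express, averaged 102.5 ± 36.4 and 125.0 ± 27.2 CPM.

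Most lymphoid genes with a row were low or near the floor, and the listed Trac, Ighm and Ighd matched no row. Of 22 T cell genes 0 reached 10 CPM and the list median was 0.452 CPM, with Cd3e at 0.294 ± 0.148 CPM. Of 20 natural killer and innate lymphoid genes 1 reached 10 CPM, Nkg7, a cytotoxic granule gene, at 13.1 ± 5.79 CPM, and Ncr1 (NKp46) averaged 1.19 ± 0.594 CPM. Of 25 B cell genes 6 reached 10 CPM, among them Xbp1, a secretory pathway factor of many cell types, at 331.5 ± 28.3 CPM. Cd79a, a signalling chain of the B cell receptor, measured 9.20, 8.15 and 8.17 CPM in mouse 7 and 2.77, 3.26 and 3.14 CPM in mouse 19. Cd79a was low throughout and lower in every library of mouse 19.

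Of 33 erythroid genes 11 reached 10 CPM, a share near the 36.2% of all gene rows. Without Mki67, a proliferation gene that the list also holds, the others summed to 575.9 ± 60.7 CPM. Klf1, the erythroid Krüppel-like factor, was at or below 0.307 CPM in mouse 7 and at 3.19, 1.75 and 2.36 CPM in mouse 19. The rows Hba-a1, Hba-a2, Hbb-b1 and Hbb-b2 held no count in any library. The row named Beta-s, now the beta-globin gene Hbb-bs, averaged 33.3 ± 8.77 CPM. Hba-a1 and Hba-a2 are near-identical copies. Hbb-b1 and Hbb-b2 had no exonic length. The reference lists them under chromosome 7 at 38285 to 39684 and 53494 to 54867, and Hbb-bs at 103826523 to 103827928. Whether the first 2 positions count along the chromosome itself was not checked, so no distance is read from them. Hbb-bt, also listed, matched no row. The rows at 0 therefore say little about globin RNA. Of 20 megakaryocyte and platelet genes 4 reached 10 CPM, and the defining Pf4 (platelet factor 4) averaged 0.594 ± 0.279 CPM. Of 23 stem and progenitor genes 6 reached 10 CPM.

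Genes of the marrow scaffold were at or under the floor for most members. The stromal list reached 10 CPM with 2 of 21 genes, the endothelial list with 3 of 19 and the osteoblast and chondrocyte list with 2 of 17. Cxcl12, the stromal retention chemokine, averaged 3.34 ± 2.30 CPM, Lepr, the leptin receptor of marrow stroma, 0.269 ± 0.231 CPM, Cdh5 (VE-cadherin) 0.393 ± 0.265 CPM and Col1a1 (collagen I) 0.454 ± 0.207 CPM. Bglap (osteocalcin), Sp7 (osterix) and Sox9 were among 8 osteoblast and chondrocyte genes with no count. Pecam1, at 46.0 ± 11.5 CPM, is shared by endothelial and myeloid cells.

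Across the table as a whole, 80 rows at 1000 CPM or more held 17.9% of the CPM, and rows at 100 CPM or more held 73.5%. Of the 20 highest rows per kilobase, S100a9 (11557), S100a8 (9047), Ngp (4324), Lcn2 (2052) and Camp (1403) encode granule or antimicrobial proteins of neutrophils, some of them shared with monocytes. Lyz2 (10979), Chi3l3 (4166), Tyrobp (1351) and Ly6c2 (1194) are myeloid genes of the monocyte and macrophage lists. Lyz2 and Chi3l3 are on the secondary granule list as well. Most others serve every cell, such as Tmsb4x (5204), which sequesters actin monomers, Eef1a1 (3591), a translation factor, Actb (3501), B2m (2113), the light chain of class I molecules, and Ftl1 (1804), a ferritin chain.

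**Figure D3:**
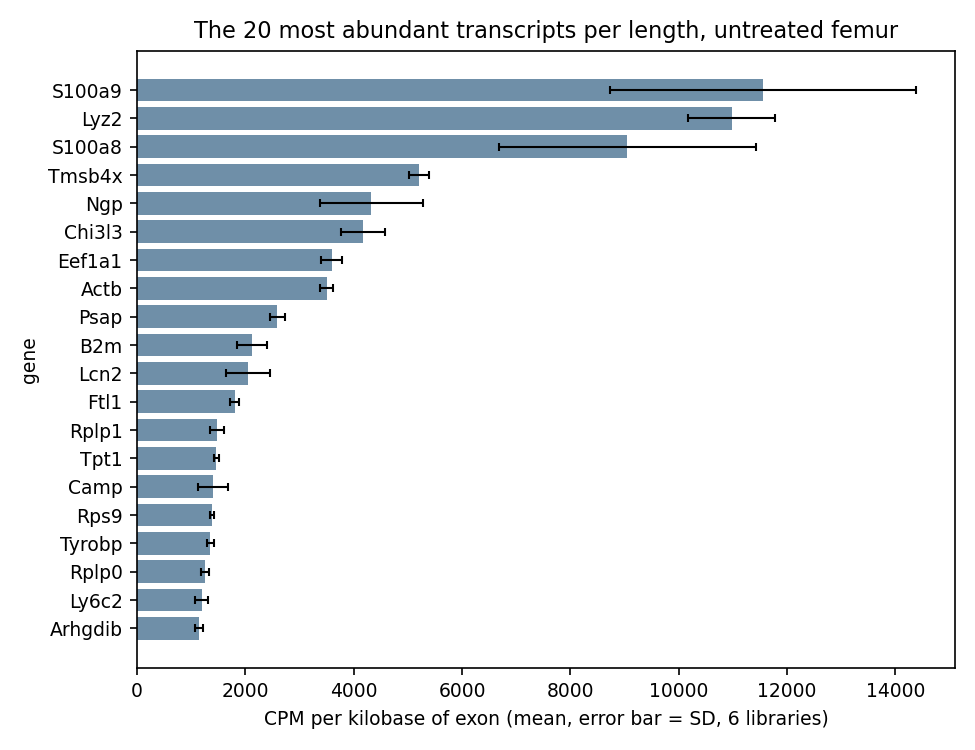
CPM per kilobase of exon for the 20 highest gene rows, with bars for the mean over 6 libraries and error bars for the SD. S100a9, Lyz2 and S100a8 lead, and the error bars of S100a9 (2819) and S100a8 (2374) are far wider than those of Actb (121.0) and Tmsb4x (181.5).

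The libraries of mouse 19 were then compared with those of mouse 7 to see how far the baseline varied. Of 11504 genes tested with edgeR's quasi-likelihood test, 1737 were higher in mouse 19 (15.1%) and 1678 lower (14.6%) with the Benjamini-Hochberg adjusted p below 0.05. Most called differences were small, with a median absolute log2 fold change of 0.317, and 132 genes were at least 2-fold higher and 156 at least 2-fold lower. The test sets 3 libraries of 1 animal against 3 of another, so it bears on these libraries and not on mice in general.

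The lists were chosen with earlier results of these data known, so the list counts here and below describe their members and test no cell type. Secondary granule, primary granule, eosinophil, erythroid and cell cycle lists, some of which share members, held mostly genes higher in mouse 19. Of 17 secondary granule genes, 15 were higher and 1 lower, with a median log2 fold change of 0.50 against 0.005 over all genes tested. Of 18 primary granule genes 13 were higher and 3 lower (median 0.56), of 13 eosinophil genes tested 11 were higher and none lower (1.12), of 27 erythroid genes tested 20 were higher and 1 lower (1.06), and of 30 cell cycle genes 28 were higher and none lower (0.35). Mpo was higher by a log2 fold change of 1.11 ± 0.06 (SE; edgeR adjusted p = 3.9e-14), and S100a8 by 0.67 ± 0.04 (adjusted p = 4.1e-12). Among monocyte and macrophage progenitor genes 11 of 19 were higher and 2 lower. The mature neutrophil list was divided, with 11 of 23 genes higher and 7 lower (median 0.13). Of 14 basophil and mast cell genes tested 2 were higher and none lower.

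Non-classical monocyte, class II and pattern recognition lists, chosen in the same way, held mostly genes lower in mouse 19. Of 20 non-classical monocyte genes 14 were lower and 3 higher, with a median log2 fold change of -0.48, and Ace fell by 1.67 ± 0.06 (SE; edgeR adjusted p = 2.1e-17). Of 19 class II genes 11 were lower and none higher (-0.42), with Cd74 at -0.98 ± 0.04 (adjusted p = 7.8e-16). Of 32 pattern recognition genes 20 were lower and 2 higher (-0.29), with Tlr4 at -0.53 ± 0.07 (adjusted p = 5e-07). Of 17 B cell genes tested 11 were lower and 1 higher (-0.53).

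Of 25 macrophage core genes 13 were lower in mouse 19 and 4 higher, where 14.6% of all tested genes were lower and 15.1% higher. The share of core genes that were higher was thus near that of all tested genes. Csf1r differed by -0.49 ± 0.03, Emr1 by -0.54 ± 0.04 and Cx3cr1 by -0.53 ± 0.04 on the log2 scale (SE; edgeR adjusted p = 4.8e-12, 1.5e-11 and 3.3e-11). Ly6c2 differed by 0.26 ± 0.03 and Itgax by 0.47 ± 0.06 (adjusted p = 7.3e-07 and 1e-06). Fcgr1, the high-affinity Fc gamma receptor, measured 139.3, 125.5 and 137.4 CPM in mouse 7 and 52.6, 59.2 and 54.8 CPM in mouse 19. The markers thus did not move as a block between the animals. Of 21 classical monocyte genes 7 were higher and 11 lower.

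Summed levels of some lists also separated the animals, while those of others overlapped. The classical monocyte list summed to 29782 to 30844 CPM in mouse 7 and 29594 to 30589 CPM in mouse 19. The osteoclast and the stem and progenitor lists overlapped as well. The secondary granule list summed to 34395 to 35625 CPM in mouse 7 and 38366 to 40395 CPM in mouse 19, with Lyz2 among its members. Its 12 members on no mononuclear phagocyte list summed to 10329 CPM in the lowest library and 16789 CPM in the highest. The mature neutrophil list summed to 12573 to 13294 CPM in mouse 7 and 17025 to 19471 CPM in mouse 19. Much of that difference came from S100a9 and S100a8. S100a9 averaged 4725 CPM in mouse 7 and 7270 CPM in mouse 19, and S100a8 3394 and 5400 CPM. Of the 23 genes of that list, 11 were higher in mouse 19 and 7 lower. The eosinophil list summed to 324.2 to 342.5 CPM in mouse 7 and 702.4 to 770.9 CPM in mouse 19. The erythroid list without Mki67 summed to 504.1 to 544.4 CPM in mouse 7 and 617.6 to 639.0 CPM in mouse 19. Its globin rows Hba-a1 and Hbb-b1, marked as defining, were at 0 and say little about globin RNA. The B cell list went the other way, at 481.9 to 508.5 and 404.4 to 423.1 CPM, as did the macrophage core list, at 31098 to 31865 and 27254 to 27706 CPM. Xbp1, a factor of many cell types, held 331.5 CPM of the mean B cell sum of 453.4 CPM. Within the core sum Lyz2 averaged 15391 CPM in mouse 7 and 13505 CPM in mouse 19. The part of granulocyte, red cell or B cell RNA in the differences of the macrophage genes was not tested. Sfpi1, Csf2ra and Cybb, at log2 fold changes of 0.05 ± 0.04, 0.06 ± 0.04 and -0.05 ± 0.03 (SE), did not pass the threshold.

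**Figure D4:**
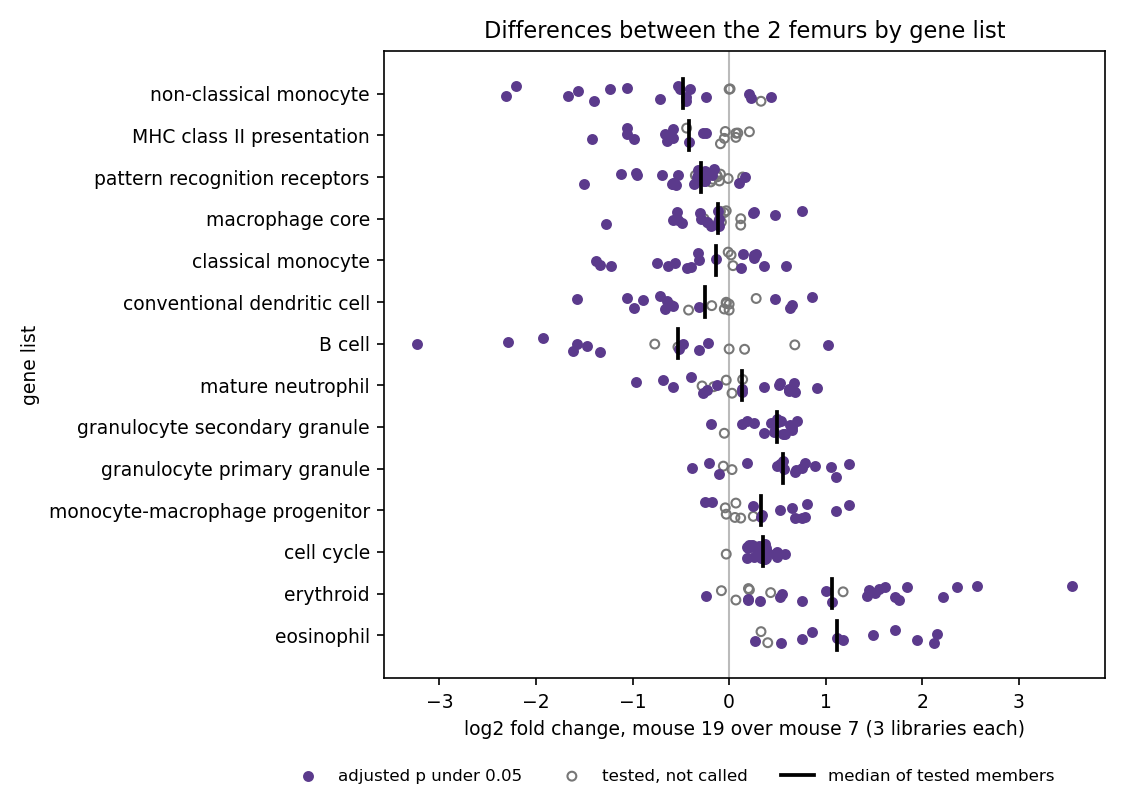
Log2 fold change of mouse 19 over mouse 7 for each tested gene of 14 lists, with filled points for genes at an edgeR adjusted p under 0.05 and a bar at the list median. Non-classical monocyte and class II genes lie mostly left of 0, and eosinophil, erythroid and cell cycle genes mostly right of 0.

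Single genes with the widest differences and non-overlapping libraries came from several of these groups. Gpnmb, a glycoprotein of lipid-laden macrophages, measured 4.68, 3.14 and 3.46 CPM in mouse 7 and 20.4, 14.9 and 17.4 CPM in mouse 19. Lpl (lipoprotein lipase) measured 60.7, 52.8 and 51.2 CPM in mouse 7 and 196.8, 207.3 and 179.0 CPM in mouse 19. Both were higher in mouse 19, as were the carbonic anhydrase genes Car1 and Car2 at log2 fold changes of 2.21 and 1.84. Cd36, a fatty acid and scavenger receptor, measured 22.1, 24.9 and 20.6 CPM in mouse 7 and 4.01, 5.16 and 4.40 CPM in mouse 19. Oas2, an interferon-induced antiviral enzyme, measured 144.6, 152.5 and 139.8 CPM in mouse 7 and 40.3, 42.4 and 39.0 CPM in mouse 19. Cd36 and Oas2 were lower in mouse 19, as were S1pr5, a sphingosine phosphate receptor, at -1.97, Lilra5, a leukocyte immunoglobulin-like receptor, at -2.56, and Siglec1 at -1.94. Every gene named here had an edgeR adjusted p under 0.05.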

How the data were processed

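The submitters' deposited table gives whole-number read counts per gene and library, with no sign of scaling by the authors. The build mm10 and the tools bcl2fastq, HISAT2, featureCounts, Subread and DESeq2 are named, per the submitters' processing notes, without versions, strand setting or annotation; reads of overlapping genes can therefore not be told apart. All columns matched a sample title. Of 23420 rows, 27 carry names turned into dates (at most 0.192% of a library) and were not ranked or named. CPM used TMM-scaled sizes (edgeR 4.0.16, limma 3.58.1, R 4.3.3). Exonic lengths are unions of GENCODE M21 exons, for 23024 rows. Mouse 19 was tested against mouse 7 with edgeR's two-sided quasi-likelihood test after filterByExpr (minimum count 10), which kept 11504 genes; DESeq2 1.42.0 was an alternative. Libraries of 1 mouse differed beyond sampling noise (chi-square per gene 1.72 to 2.31 on halved counts) and were kept apart. The test was tried on simulated data. Of 641 listed genes 633 matched a row. Ly6g, Siglecf, Ighm, Ighd, Trac, Hbb-bt, Ahsp and March1 did not and could not be read. Genes named are defining list members, the most abundant members and rows, members at 0, and the 10 largest differences per direction; others were named after their values were seen. Some listed genes are not reported here. Members and the 33 lists were chosen with earlier results of these data known.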

Additional observations from a re-analysis of the deposited data

Results flagged for a closer look

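Lyz1, a close copy of the lysozyme gene Lyz2 that lies next to it on chromosome 10, was far higher in 1 library than in the other 5. It measured 353.7 CPM in mouse 7 replicate 3, against 96.1 CPM in the next library, mouse 19 replicate 3, and 25.8 CPM in the lowest. The gap to the next library was 0.786 of the whole range, above the limit of 0.625 for 6 libraries. Among 121 items checked this was the 1 that passed, where chance alone flags about 1 group in 20, and Lyz1 was added after its values had been seen. Lyz2 measured 15715 CPM in the same library, against 15256 and 15203 CPM in the others of that mouse. Reads of the 2 copies can be divided between them in counting, and its part in the value was not tested.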

How the results depend on the processing

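The number of rows at 10 CPM or more was 8466 and stayed between 8456 and 8477 with raw totals, DESeq2 size factors, sums per animal or any library left out. The 1737 higher and 1678 lower genes became 1471 and 1464 with DESeq2, 1706 and 1691 with RLE scaling, 1742 and 1753 with no filter, 1630 and 1588 at 5 CPM or more in at least 3 libraries, and 1753 and 1677 on halved counts. Leaving out 1 library gave 1369 to 1532 higher and 1388 to 1641 lower genes. With the replicate number as a replicate block there were 1679 and 1629, and 95.3% of the calls were kept. The labels do not say that equal numbers share anything, and the deviations of same-numbered libraries correlated at 0.0518, 0.00562 and 0.0225, so the numbers were not used as pairs. Over all these settings, 77.7 to 99.1% of the calls were kept. No named gene changed direction. Of the fold changes of named genes under these settings, 1013 stayed on their side of the threshold, 30 lost it and 9 gained it. Nr4a1 lost its call with DESeq2. Fos and Vcam1 were called by edgeR and lost that call in several settings. Depth limits genes near 0.418 to 0.617 CPM per library, where a difference was not detectable.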
